A study of Mus musculus with 8 samples.

Results

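The BCL2 family decides at the outer mitochondrial membrane whether a stressed cell lives or dies by apoptosis. The messenger RNAs of 10 of its genes were followed in mouse liver, chosen by name as the rows Bcl2, Bcl2l1, Mcl1, Bax, Bak1, Bid, Bad, Bcl2l11, Bbc3 and Pmaip1 of the 35204 gene rows in the deposited table. All 10 were found and all 10 were abundant enough to be tested. Poly-A RNA was sequenced in 8 liver libraries. The 3 controls are wild-type C57BL/6J livers with no treatment. The 5 others, called TAZ-CCl4 libraries, are wild-type C57BL/6J livers that received EF1a-TAZS89A by HTVI and CCl4 30 times, 3 times a week for 10 weeks. Age and sex are not given in the labels.

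HTVI is the usual short form of hydrodynamic tail vein injection, which brings plasmid into a part of the hepatocytes. EF1a is a promoter active in most cell types, and TAZ S89A is a TAZ, the coactivator encoded by Wwtr1, that escapes retention in the cytoplasm by the Hippo pathway. CCl4 is a toxin that injures hepatocytes. The controls received neither the plasmid nor CCl4, and their libraries belong to another library project, so the plasmid, the toxin and the project cannot be told apart. The labels do not say whether each library is a separate mouse. The tests therefore rest on the spread between libraries, part of which may be technical.

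Family members fall into 3 classes. Guardians such as BCL2, BCL-XL (gene Bcl2l1) and MCL1 hold the killers in check, the pore formers BAX and BAK (gene Bak1) perforate the mitochondrial outer membrane and release cytochrome c, and the BH3-only proteins BID, BAD, BIM (gene Bcl2l11), PUMA (gene Bbc3) and NOXA (gene Pmaip1) sense stress and either block guardians or activate the pore formers. In hepatocytes of mice, BCL-XL and MCL1 are the guardians known to be needed for survival, and BID links death receptors at the cell surface to mitochondria. Bax, Bbc3 and Pmaip1 are textbook targets of the transcription factor p53.

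The sequence upstream of the start site is shown for 5 members that rose and that represent the 3 classes, because the study concerns TAZ, which reaches DNA through TEAD factors. RefSeq windows were available for 9 members, as 15 windows, and those shown hold the 250 bases before the outermost listed start in GRCm38.p6, which is the mm10 build. They are chr1:106714291-106714540 on the minus strand for Bcl2, chr2:152831729-152831978 on the minus strand for Bcl2l1, chr3:95658471-95658720 on the plus strand for Mcl1, chr2:128125788-128126037 on the plus strand for Bcl2l11 and chr7:45466899-45467148 on the minus strand for Bax. Capitals mark matches on either strand to GGAATG (TEAD), TGANTCA (AP-1), GTAAACA (FOXO), GGGCGG (the GC box) and the p53 half-site.
Bcl2: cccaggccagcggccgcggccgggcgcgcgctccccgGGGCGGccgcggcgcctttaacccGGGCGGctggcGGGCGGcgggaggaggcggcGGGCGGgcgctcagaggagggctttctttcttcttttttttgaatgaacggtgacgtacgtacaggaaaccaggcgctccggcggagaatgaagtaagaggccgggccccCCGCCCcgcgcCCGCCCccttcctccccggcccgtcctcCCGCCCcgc
Bcl2l1: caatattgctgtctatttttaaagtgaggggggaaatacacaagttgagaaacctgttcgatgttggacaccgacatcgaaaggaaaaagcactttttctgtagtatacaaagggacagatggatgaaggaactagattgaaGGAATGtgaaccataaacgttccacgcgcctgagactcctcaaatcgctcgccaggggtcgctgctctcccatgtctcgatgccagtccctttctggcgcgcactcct
Mcl1: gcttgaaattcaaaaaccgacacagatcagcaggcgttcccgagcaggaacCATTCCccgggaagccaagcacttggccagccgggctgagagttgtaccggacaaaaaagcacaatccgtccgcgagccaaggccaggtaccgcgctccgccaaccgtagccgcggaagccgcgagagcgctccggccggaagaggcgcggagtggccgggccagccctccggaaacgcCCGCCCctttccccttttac
Bcl2l11: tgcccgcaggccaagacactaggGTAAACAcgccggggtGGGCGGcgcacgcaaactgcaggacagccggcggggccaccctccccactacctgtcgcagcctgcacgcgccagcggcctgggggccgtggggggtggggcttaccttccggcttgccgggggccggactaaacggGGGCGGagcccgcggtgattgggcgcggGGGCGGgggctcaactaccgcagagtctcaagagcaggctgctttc
Bax: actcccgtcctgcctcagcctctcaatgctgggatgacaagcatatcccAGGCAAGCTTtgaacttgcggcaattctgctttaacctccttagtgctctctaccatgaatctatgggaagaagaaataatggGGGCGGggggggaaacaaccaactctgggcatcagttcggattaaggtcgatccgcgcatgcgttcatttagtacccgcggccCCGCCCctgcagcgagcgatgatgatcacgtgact
GGAATG was found in 2 of the 15 windows of members, against 12.6% of all 32851 windows. It stood at -108 to -103 of the Bcl2l1 window shown and, on the opposite strand, at -199 to -194 of the Mcl1 window. The FOXO letters stood in 2 of the 15, windows of Bcl2l11 and Bbc3, against 3.17% of all windows. The p53 half-site stood in 1 of the 15, that of Bax, against 7.13%. The GC box stood in 10 of the 15 windows of members, against 32.7% of all windows, and TGANTCA in 0, against 6.75%. No 2 matches to different motifs overlapped in the 5 windows shown. Bak1 and Bid also rose but are not shown, and the Bak1 window held a match to none of these motifs. A match describes letters and does not show that a factor binds.

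Guardian, pore former and BH3-only genes all had members that were higher in the TAZ-CCl4 livers, and no member was lower. Of the 10 members, 8 rose, 0 fell and 2 did not pass (limma, Benjamini-Hochberg adjusted over 14171 tested genes, threshold 0.05). Among all tested genes 62.3% were called, 32.4% higher and 29.8% lower, so calls were common in these data. The groups did not overlap for 7 members, with every TAZ-CCl4 library above every control, against 30.7% of all tested genes and 29.4% with the reverse order. The median log2 fold change was 0.83 over the members and 0.03 over all tested genes. In bulk tissue, a change in the number of cells of a type and a change in RNA per cell cannot be told apart.

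**Figure D1:**
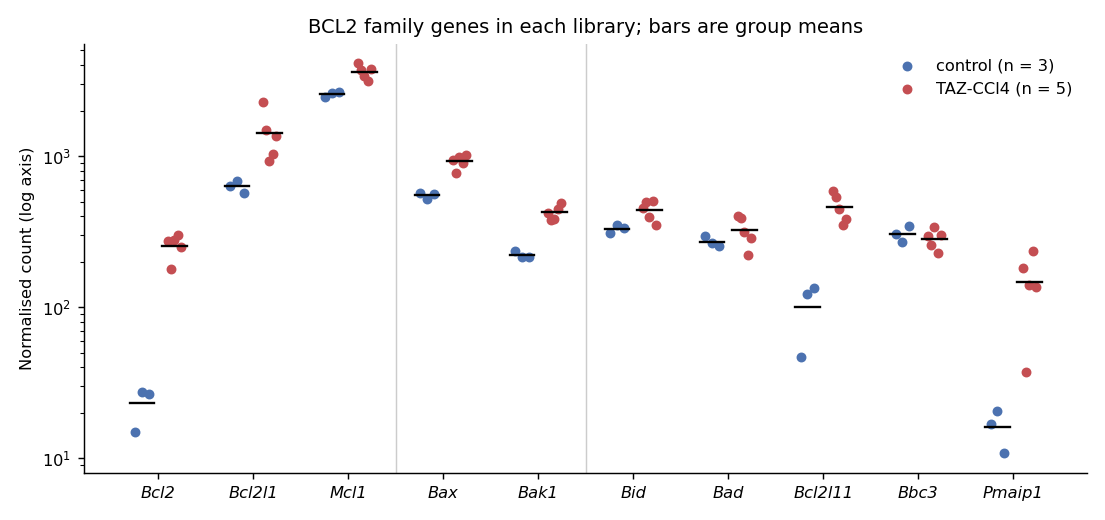
Normalised counts of the 10 members (log axis) in the 3 control and 5 TAZ-CCl4 libraries, 1 point per library, with guardians on the left, pore formers in the middle and BH3-only genes on the right. Bcl2 moves from 14.9 to 27.6 in the controls to 180 to 299 in the TAZ-CCl4 libraries, while Bbc3 and Bad overlap between groups.

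Bcl2 (mm10 chromosome 1, 106538178 to 106714274) had the largest rise of the 10. It stood at 14.9, 27.6 and 26.9 normalised counts in control replicates 1 to 3, against 273, 180, 278, 299 and 249 in TAZ-CCl4 replicates 1 to 5. The lowest TAZ-CCl4 library was thus well above the highest control, and the rise was the same in kind in all 5. The log2 fold change was 3.44 ± 0.26 (SE, limma, adjusted p = 2.91e-06), larger than for 94.6% of tested genes. In the controls the gene was near the lower end, above 15.9% of tested genes by mean value.

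Bcl2l1 (chromosome 2, 152780668 to 152831728) encodes BCL-XL and was the most variable of the 3 guardian members among the TAZ-CCl4 libraries. Controls stood at 635, 689 and 573, against 2288, 1480, 933, 1027 and 1367 in TAZ-CCl4 replicates 1 to 5. Replicate 1 was 2.45 times replicate 3, but replicate 3 still lay above the highest control. The log2 fold change was 1.09 ± 0.26 (SE, limma, adjusted p = 0.00375).

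Mcl1 (chromosome 3, 95658788 to 95663176), a guardian with a short-lived protein, was the most abundant member in counts in every library. The control values were 2446, 2603 and 2654, against 4102, 3738, 3396, 3150 and 3744 with TAZ and CCl4. The groups did not overlap, and the rise was small, at 0.49 ± 0.12 on the log2 scale (SE, limma, adjusted p = 0.00512).

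The pore former genes rose by less than a doubling and varied little within groups. Bax (chromosome 7, 45461697 to 45466898) read 567, 524 and 565 among controls, against 949, 769.8, 992, 898 and 1022 in the TAZ-CCl4 group. Bak1 (chromosome 17, 27019810 to 27029009), which lies within the Ggnbp1 gene of the opposite strand, read 236, 216 and 216.5 among controls, against 423, 380.5, 385, 446 and 493 in the TAZ-CCl4 group. For both genes every TAZ-CCl4 library exceeded every control, and the coefficients of variation were 4.37% and 5.16% in the controls and 10.7% and 10.9% in the TAZ-CCl4 libraries. Their log2 fold changes were 0.74 ± 0.13 and 0.92 ± 0.14 (SE, limma, adjusted p = 5.27e-04 and 2.30e-04).

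Among the BH3-only genes, Bcl2l11 and Pmaip1 rose strongly, Bid rose slightly, and Bad and Bbc3 did not pass. Bcl2l11 (chromosome 2, 128126038 to 128162547), which encodes BIM, a partner of all the guardians, read 47.2, 122 and 134 among controls. In the TAZ-CCl4 group it reached 584, 541, 445, 351 and 384. Control replicate 1 was low beside the other two controls, as it was for Bcl2, and the lowest TAZ-CCl4 library was above the highest control. The log2 fold change was 2.29 ± 0.33 (SE, limma, adjusted p = 1.64e-04), and 1.81 to 2.56 when single libraries were left out.

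Pmaip1 (chromosome 18, 66458533 to 66465565) encodes NOXA, which binds MCL1 and hastens its loss. Control values were 16.98, 20.5 and 10.8, against 183, 37.2, 140.3, 235 and 135 in the TAZ-CCl4 group. TAZ-CCl4 replicate 2 was far below the other four yet above the highest control, and highest and lowest differed 6.31 times. The log2 fold change was 2.93 ± 0.53 (SE, limma, adjusted p = 7.36e-04). TAZ-CCl4 replicate 2 also had the lowest summed markers of the group for cell division (1045 against 1299 to 3543), macrophages (3178 against 4319 to 7765), T and NK cells (88.4 against 130.4 to 303) and endothelium (982 against 1027 to 1650). It was not the lowest for cholangiocyte (3016), neutrophil (229.9), stellate and myofibroblast (2789) or hepatocyte markers (717400). The order of the other four by Pmaip1 matched none of these orders in full, though replicate 4 followed by replicate 1 led for neutrophil markers as for Pmaip1. The part of these cells in the Pmaip1 level was not tested.

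Bid (chromosome 6, 120891930 to 120916853) encodes a protein that caspase-8 cleaves into its active form. Control values were 308, 349 and 336, against 453, 495, 395, 501 and 348 in the TAZ-CCl4 group. TAZ-CCl4 replicate 5 lay within the control range, so the groups overlapped. Its log2 fold change was 0.39 ± 0.16 (SE, limma, adjusted p = 0.0475). Leaving out control replicate 1, 2 or 3 ended the call (limma, adjusted p = 0.151, 0.0796 and 0.103), as did leaving out TAZ-CCl4 replicate 1, 2 or 4 (limma, adjusted p = 0.0753, 0.0827 and 0.0814).

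Bad (chromosome 19, 6941861 to 6951899), whose protein is held inactive by phosphorylation under growth factor signals, read 294, 266 and 255 among controls. In the TAZ-CCl4 group it read 404, 391, 316, 220 and 289, with replicate 4 below all controls and replicates 1 to 3 above them. The log2 fold change of 0.22 (95% interval -0.23 to 0.68, limma, adjusted p = 0.364) did not pass. Bbc3 (chromosome 7, 16308393 to 16318205), which encodes PUMA, read 307, 269.8 and 343.5 among controls. In the TAZ-CCl4 group it read 295, 257, 339.8, 228 and 300.3, and the groups overlapped almost fully. The log2 fold change was -0.12 (95% interval -0.49 to 0.25, limma, adjusted p = 0.562). It was 1.13 at equal totals, where the median of all genes was 1.26. Bbc3 lay slightly below the median at both scalings, which is 1 observation, since a factor per library moves both nearly alike.

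The 3 textbook p53 targets among the members therefore moved unequally, with Pmaip1 and Bax higher and Bbc3 not called. Trp53, the gene of p53 itself, read 584, 526 and 661 among controls, against 1209, 1058, 1205, 1225 and 1146 in the TAZ-CCl4 group. The groups did not overlap, and the log2 fold change was 0.99 ± 0.12 (SE, limma, adjusted p = 5.22e-05). Trp53 was singled out after its values were seen, and p53 is controlled mainly as a protein, which was not measured.

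No called member changed direction under the other scalings of the libraries, but the sizes moved. The deposited totals spanned 29.8 to 35.1 M for controls, against 12.4 to 14.2 M for the TAZ-CCl4 group. Setting totals equal moved the median over all genes from 0.03 to 1.26 on the log2 scale. At equal totals 10 of 10 members were called higher, against 76.3% of all tested genes called higher and 6.39% lower. The members' median was then 2.08. A factor per library shifts all genes nearly alike, so the margin over the median of all genes could hardly change and is not a further result. After quantile normalisation 7 members were called higher, against 27.8% of all genes, and Bid no longer passed (limma, adjusted p = 0.107). On the log2 scale the fold change of Mcl1 was then 1.19 in place of 0.49, that of Bcl2 2.69 in place of 3.44, that of Bcl2l11 1.91 in place of 2.29 and that of Pmaip1 2.04 in place of 2.93.

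**Figure D2:**
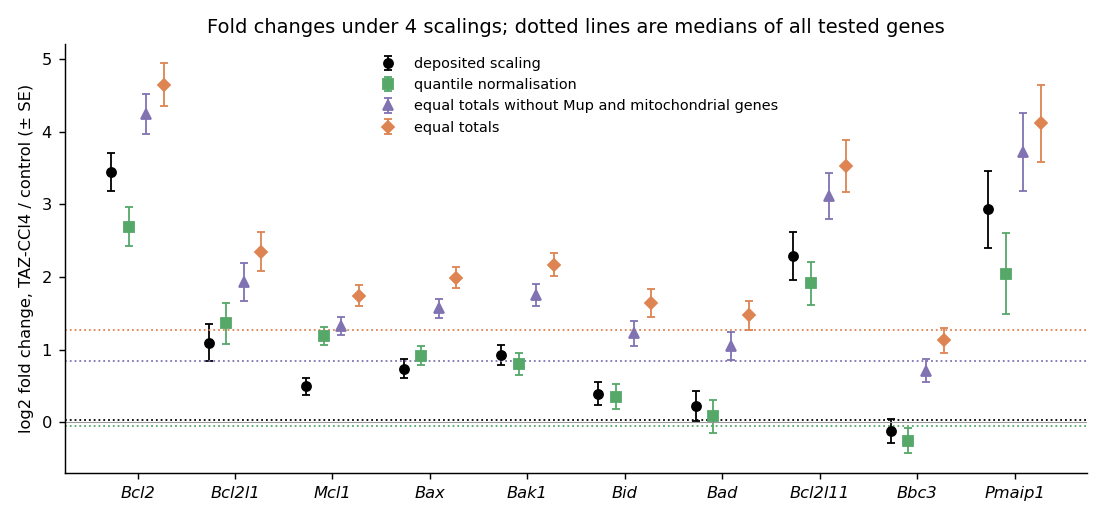
Log2 fold change (TAZ-CCl4 over control, with SE) of each member at the deposited scaling and under 3 other scalings, with a dotted line at the median of all tested genes under each. Bcl2, Bcl2l11 and Pmaip1 lie far above the median line of each scaling, whereas Bbc3 lies just below its median in all of them.

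Ratios between 2 genes of the same library do not depend on a factor applied to the whole library, though quantile normalisation, which treats each level of abundance differently, does move them. They are described without a test, at the deposited values unless quantile normalisation is named. The log2 ratio of Bax to Bcl2 was 5.24, 4.25 and 4.39 among controls and 1.80, 2.10, 1.84, 1.59 and 2.04 in the TAZ-CCl4 group. The groups lay far apart, and the ratio was 6.77 times lower in the TAZ-CCl4 group by the difference of the mean log2 values. The ratio of Bak1 to Bcl2 was lower by 5.95 times in the same sense, also with no overlap. After quantile normalisation, an alternative chosen after the data were seen, both differences shrank, from -2.76 to -1.77 and from -2.57 to -1.89 on the log2 scale, and the groups still did not overlap.

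The ratios of the pore formers to the other guardians moved less. The log2 ratio of Bax to Bcl2l1 was -0.19 ± 0.19 among controls (SD, n = 3) and -0.55 ± 0.55 in the TAZ-CCl4 group (SD, n = 5), and the groups overlapped. The ratio of Bax to Mcl1 also overlapped, at -2.22 ± 0.10 and -1.97 ± 0.22. Set against Bcl2l1, Bak1 overlapped as well, at -1.501 ± 0.15 and -1.67 ± 0.52. The ratio of Bak1 to Mcl1 was -3.53 ± 0.13 and -3.09 ± 0.21 with no overlap, but its direction turned after quantile normalisation, to -3.03 ± 0.11 and -3.41 ± 0.23, again with no overlap. The difference of the Bax to Mcl1 ratio turned likewise, from 0.25 to -0.27, and overlapped under both. How the pore formers stood against Mcl1 therefore depended on the scaling.

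The mix of guardian messages shifted. The log2 ratio of Bcl2 to Mcl1 went from -6.85 ± 0.44 among controls (SD, n = 3) up to -3.84 ± 0.37 in the TAZ-CCl4 group (SD, n = 5), an 8.04-fold change of the ratio. The ratio of Bcl2 to Bcl2l1 changed 5.29-fold and that of Bcl2l1 to Mcl1 1.52-fold, with no overlap for either. After quantile normalisation the groups still did not overlap for Bcl2 to Mcl1, with a difference of 1.51 in place of 3.01 on the log2 scale, nor for Bcl2 to Bcl2l1, with 1.33 in place of 2.40. They overlapped for Bcl2l1 to Mcl1, with 0.18 in place of 0.60. Bcl2 thus gained on both other guardians under both, by a size that depended on the scaling.

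**Figure D3:**
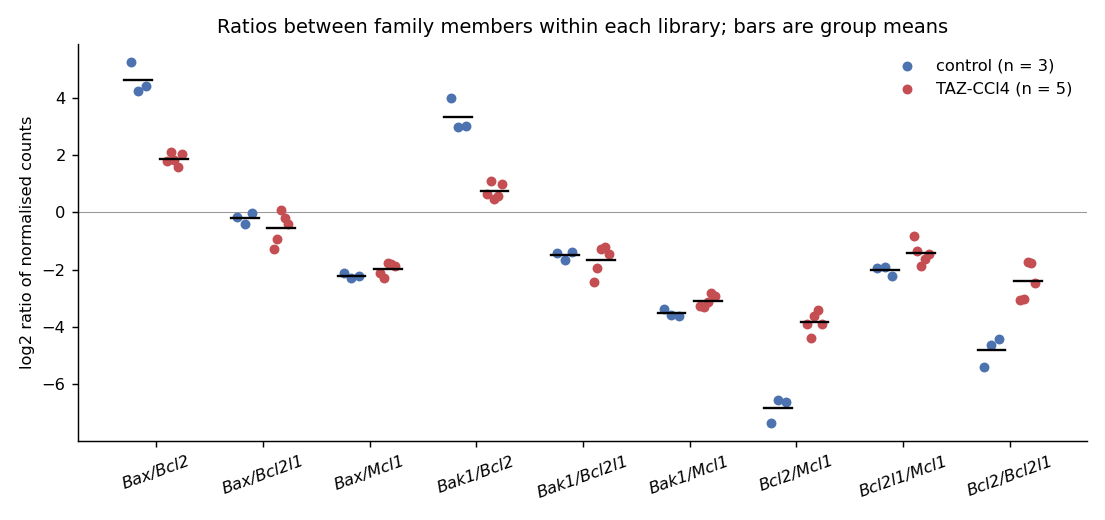
Log2 ratio of deposited normalised counts of 2 members within each of the 3 control and 5 TAZ-CCl4 libraries, 1 point per library. Ratios with Bcl2 separate the groups widely, for example 4.25 to 5.24 against 1.59 to 2.10 for Bax to Bcl2, while those of Bax to Bcl2l1 and to Mcl1 overlap.

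Levels of different genes were compared per kilobase of the principal GENCODE transcript. In the controls Mcl1 led with 751 ± 31.7 normalised counts per kilobase (SD, n = 3), followed by Bax with 637 ± 27.8 and Bcl2l1 with 246 ± 22.6. Bad, Bbc3 and Bid followed at 187 ± 14.04, 169 ± 20.3 and 151 ± 9.71, and the ranges of neighbours in that trio overlapped. Bak1 stood at 93.4 ± 4.81 and Bcl2l11 at 20.1 ± 9.36, and Pmaip1 and Bcl2 came last at 5.90 ± 1.80 and 3.22 ± 0.989.

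In the TAZ-CCl4 libraries Bax and Mcl1 were level at 1068 ± 114 and 1061 ± 107 normalised counts per kilobase (SD, n = 5), with overlapping ranges. Bcl2l1 came next at 553 ± 209 and Bad, Bid, Bak1 and Bbc3 lay at 223 ± 52.1, 200.3 ± 30.1, 178 ± 19.5 and 157 ± 23.6, each overlapping its neighbour. Bcl2l11 stood at 91.5 ± 19.8, Pmaip1 at 53.6 ± 26.7 and Bcl2 at 35.6 ± 6.38, with Pmaip1 overlapping both. Despite its rise, Bcl2 had the lowest mean per kilobase of the 10 at these lengths. The basic coding transcripts of Bcl2 range from 2841 to 7191 bases, those of Bcl2l11 from 672 to 5036, those of Mcl1 from 858 to 3418, those of Pmaip1 from 1012 to 2727, those of Bak1 from 902 to 2387 and those of Bad from 540 to 1533. Which of them were used was not measured here, so the order of levels between genes is uncertain and holds only for the lengths taken.

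For each of the 3 members with the largest fold changes, the 3 genes with the most similar profile over the 8 libraries were found among 13514 others, by the root mean square difference of centred log2 values. The difference between the groups is part of this measure, so a near gene may share little more than the fold change. Bcl2 was followed most closely by Olfml3, Ehd2 and Aoah, at 0.111, 0.126 and 0.147. Their log2 fold changes were 3.44, 3.49 and 3.44, beside 3.44 for Bcl2. Aoah had means of 14.8 ± 6.11 (SD, n = 3) among controls and 164 ± 39.95 (SD, n = 5) in the TAZ-CCl4 group. The genes nearest Bcl2l11 were Cyp39a1, Wscd1 and Ampd3, at 0.159, 0.201 and 0.204. Pmaip1 had no neighbour as close, with Slfn4, Cdkn1c and Lig1 at 0.285, 0.317 and 0.337.

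Other cell types differed between the groups, and their markers are set beside these results. At the deposited scaling 32.4% of all tested genes were called higher and 29.8% lower. Macrophage markers summed to 1071 to 1793 in the controls and 3178 to 7765 in the TAZ-CCl4 libraries, with 3 of 5 tested markers higher and 0 lower. Csf1r made up most of that sum, at 2429 to 5603 in the TAZ-CCl4 libraries. Clec4f and Vsig4 had log2 fold changes of -2.345 and -0.16 and were not called (limma, adjusted p = 0.0725 and 0.874). Cholangiocyte markers summed to 257 to 332 and 1783 to 6617, with 4 of 4 higher, and cell division markers to 89.4 to 248 and 1045 to 3543, with 4 of 4 higher. Stellate and myofibroblast markers summed to 441 to 620.5 and 2622 to 4868, with 3 of 5 higher and 0 lower.

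Markers of further leukocytes also differed. The plasma cell genes Jchain and Mzb1 rose by 3.52 and 1.41 on the log2 scale (limma, adjusted p = 8.06e-05 and 0.0467). T and NK cell markers summed to 80.2 to 94.1 in the controls and 88.4 to 303 in the TAZ-CCl4 libraries, which overlap, with 2 of 5 tested higher, and neutrophil markers to 18.2 to 32.5 and 124 to 408, with 3 of 3 tested higher. Ly6g, too low to be tested, was at 0 in all controls and in TAZ-CCl4 replicates 1 and 3, and at most 4.66 in the others. Endothelial markers overlapped, at 1234 to 2263 and 982 to 1650 (1 higher and 2 lower of 4). Hepatocyte markers, among them Alb, were present in all libraries and summed to 1866000 to 2322000 and 679000 to 985700. Of the 6, 5 were lower and 0 higher. All these marker sums and calls are at the deposited scaling, where 32.4% of all tested genes were called higher and 29.8% lower. At equal totals 3 of 6 hepatocyte markers were lower and 0 higher, beside 6.39% lower and 76.3% higher among all tested genes. After quantile normalisation 2 of 6 were lower and 0 higher, with a median log2 fold change of 0.06. Of all 14171 tested genes 4227 were then lower and 3941 higher, so 2 of 6 was near the background. Endothelial calls at equal totals were 2 higher and 0 lower of 4 tested. The part of these cell types in the levels of the BCL2 family was not tested.

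The rest of the family differed sharply by gene. Of 15 further BCL2 family genes, 11 were tested. Higher calls numbered 4 and lower calls 2, 5 were not called, and the median log2 fold change was 0.11, against 32.4% higher, 29.8% lower and a median of 0.03 over all tested genes. Equal totals gave 9 higher and 0 lower calls and a median of 1.36, against 1.26 over all genes. Bcl2a1b and Bcl2a1d, near-identical copies of the A1 guardian known from leukocytes, rose most. Bcl2a1b read 3.79, 3.63 and 2.41 among controls, against 288, 153, 279.5, 237 and 224 in the TAZ-CCl4 group. Bcl2a1d was listed at 0 in all controls and reached 31.2 to 75.1 in the TAZ-CCl4 group. The copies can share reads, so their single values are uncertain. Bmf, a BH3-only gene, rose from 125 ± 16.7 (SD, n = 3) to 545 ± 154 (SD, n = 5), by 2.09 ± 0.21 on the log2 scale (SE, limma, adjusted p = 1.68e-05), with TAZ-CCl4 replicate 2 standing apart at 814. Bnip3, a mitophagy receptor gene singled out after its values were seen, had means of 4205 ± 395 and 1200 ± 537. The fall by 1.90 on the log2 scale (limma, adjusted p = 1.96e-04) was not called at equal totals.

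Downstream of the pores, members of the mitochondrial route moved both ways. Of 14 genes, 4 were called higher and 8 lower, with a median log2 fold change of -0.51. Among all tested genes the shares were 32.4% higher and 29.8% lower. At equal totals the calls were 10 higher and 0 lower, beside 76.3% higher and 6.39% lower among all tested genes. These shares are also the background, at each scaling, for the counts of the lists that follow. Apaf1, the scaffold of the apoptosome, rose from 24.9, 37.3 and 40.03 among controls to 287, 329, 427, 582 and 443 in the TAZ-CCl4 group (log2 fold change 3.55 ± 0.26, SE, limma, adjusted p = 2.29e-06). Cycs, the gene of cytochrome c, which binds Apaf1 once released and which was singled out after its values were seen, read 1917 to 2349 among controls and 564 to 839 in the TAZ-CCl4 group. Its log2 fold change was -1.59 ± 0.16 (SE, limma, adjusted p = 1.43e-05), and -0.34 at equal totals, where it was not called. Casp2, an initiator caspase gene, rose by 1.78 and Endog, a mitochondrial nuclease gene, fell by 1.71 on the log2 scale (limma, adjusted p = 2.77e-05 and 6.75e-05), the latter not called at equal totals.

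The genes listed as inhibitors of apoptosis were split. Of 6 genes, 4 rose and 2 fell, and at equal totals 4 were higher and 0 lower. Birc5, the gene of survivin, which is made by dividing cells, rose from 37.5 ± 19.7 (SD, n = 3) to 453.5 ± 204 (SD, n = 5) and Naip2 from 55.03 ± 15.2 to 296 ± 103, by 3.53 and 2.38 on the log2 scale (limma, adjusted p = 6.04e-05 and 5.02e-05). Xiap, which encodes a direct caspase inhibitor, stood at 2327 to 2351 in the controls and 749.9 to 1335 in the TAZ-CCl4 libraries. Its log2 fold change was -1.12 at the deposited scaling (limma, adjusted p = 3.76e-04). At equal totals Xiap stood at 0.13, below the median of 1.26 over all tested genes there.

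In the death receptor route calls among 12 tested genes were 2 higher and 4 lower, and at equal totals 11 higher and 0 lower. Tnfrsf10b, the mouse receptor for TRAIL, rose from 15.3, 33.9 and 54.55 among controls to 196, 135, 236, 288 and 232, and its log2 fold change was 2.75 ± 0.38 (SE, limma, adjusted p = 1.35e-04). Cflar, which encodes the caspase-8 inhibitor FLIP, had a log2 fold change of -0.72 and Dffa, the inhibitor of the caspase-activated nuclease, of -0.88 at the deposited scaling (limma, adjusted p = 0.00166 and 0.00135). At equal totals they stood at 0.53 and 0.36, both below the median of 1.26 over all tested genes there.

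Among genes acting on MCL1 protein turnover, 1 of 4 tested rose, the ubiquitin ligase adaptor gene Btrc, from 305 ± 12.8 (SD, n = 3) to 411 ± 15.3 (SD, n = 5; limma, adjusted p = 0.00922), and 3 did not pass. At equal totals 4 were higher and 0 lower. After quantile normalisation 3 were higher and 1 lower, beside 3941 higher and 4227 lower of all 14171 tested genes. Calls among 16 tested upstream regulators were 6 higher and 4 lower, near the 32.4% and 29.8% of all tested genes. At equal totals 13 were higher and 0 lower. Myc and E2f1, growth regulators that can also prime apoptosis, rose by 2.34 and 2.27 on the log2 scale (limma, adjusted p = 4.93e-05 and 7.73e-05), with TAZ-CCl4 replicate 1 standing apart for Myc at 1615. Jun fell by 1.60 on the log2 scale (limma, adjusted p = 9.08e-05), against -0.34 at equal totals, where it was not called.

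**Figure D4:**
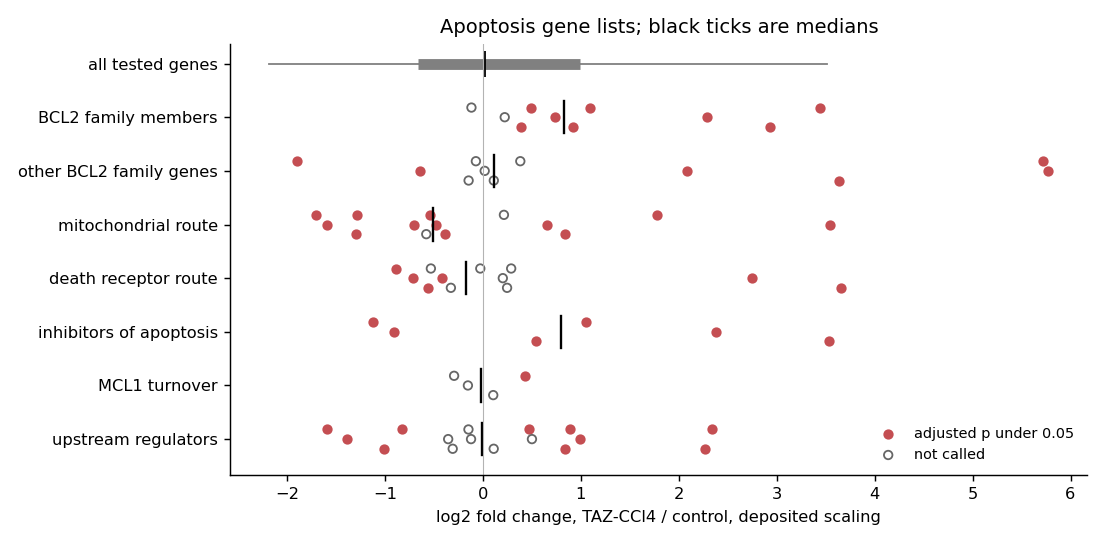
Log2 fold changes (deposited scaling) of the tested genes of 7 apoptosis lists, filled where called and open where not, with a black tick at each list's median. The bar at the top spans the 25th to 75th percentile of all tested genes and the thin line the 5th to 95th, and the median of the members, 0.83, lies within that bar.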

How the data were processed

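RNA of 8 mouse liver libraries was compared, 5 TAZ-CCl4 against 3 control libraries, with groups and replicate numbers taken from the labels. The authors deposited a normalised count signal per gene, not whole counts: the name of the deposited table gives kallisto and DESeq2, and DESeq2 and mm10 are also named per the submitters' processing notes. The sources used here do not give versions, annotation or strand setting. The most frequent step of values below 10 puts depth at about 12.4 to 33.8 M reads per library, as an estimate, but only 47.3% to 66.7% of those values lay within 0.03 of whole multiples, so no count model was run. No pair of libraries of a group matched within counting noise (3.91 to 28.7 times its variance).

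Values were taken as log2(value + 1) for the 14171 genes with a mean of at least 10, so fold changes of low genes are understated. Groups were compared by limma-trend (limma 3.58.1 under R 4.3.3), with Benjamini-Hochberg adjusted p-values and a threshold of 0.05, after the script was tested on simulated data. The library project coincides with the group, so it was not a covariate. Positions and transcript lengths are from GENCODE M21, on mm10, and upstream sequences from RefSeq on GRCm38.p6. Reads where Bcl2, Bak1, Bid and Bad overlap genes of the other strand may not be separated. The same holds where Bcl2, Bax and Bid overlap other genes of the same strand.

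The members and lists were chosen with earlier results of these data known. Named genes are the 10 members, up to 3 called genes per list, taken by absolute fold change among those whose larger group mean reached 50, the 3 nearest profiles of 3 members, and Trp53, Cycs and Bnip3, chosen after their values were seen. Alternatives were another pseudocount, filter, scaling or prior, a replicate block and leaving out each library. The summed level of 1 marker list is not reported here.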

Additional observations from a re-analysis of the deposited data

Results flagged for a closer look

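Of 29 named genes and 9 ratios examined over the 5 TAZ-CCl4 libraries, 2 had 1 library far from the rest, and chance gives about 1 in 20. For Bmf, TAZ-CCl4 replicate 2 stood at 814 against 429 to 522 in the other four, a gap of 0.758 of the whole range, where 0.71 is the critical value. For Myc, TAZ-CCl4 replicate 1 stood at 1615 against 631 to 863, a gap of 0.764 of the range. Replicate 1 was also the highest for Bcl2l1, at 2288. None of the 10 BCL2 family members passed this criterion.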

How the results depend on the processing

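Under 18 alternatives, Bcl2, Bcl2l1, Mcl1, Bax, Bak1, Bcl2l11 and Pmaip1 kept their direction and call each time, with Mcl1 ranging from 0.45 to 1.74 on the log2 scale and its adjusted p reaching 0.0288 (limma). Bid lost its call under 10 of the 18. Bad was called higher under both equal-total scalings. The number of members called higher was 7 to 8 when single libraries were left out, and that of all genes 4015 to 4586 higher and 3600 to 4269 lower.

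Equal totals gave 10810 genes higher and 906 lower, and equal totals without Mup and mitochondrial genes 8914 and 1512, since the scaling itself shifts all genes. Under these, Bbc3 turned to 1.13 and 0.71, and Cflar to 0.53 and 0.11. At equal totals Dffa turned to 0.36 and Xiap to 0.13. The median over all tested genes was 1.26 at equal totals and 0.85 without Mup and mitochondrial genes, above each of these values. Leaving out single libraries moved the Bak1 to Bcl2l1 difference between -0.29 and 0.02, and no other ratio changed direction there. After quantile normalisation, chosen for ratios after the data were seen, the difference in log2 ratio was -1.77 for Bax to Bcl2, -0.27 for Bax to Mcl1, -1.89 for Bak1 to Bcl2, -0.38 for Bak1 to Mcl1, which turned, 1.51 for Bcl2 to Mcl1, 0.18 for Bcl2l1 to Mcl1 and 1.33 for Bcl2 to Bcl2l1.

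With the replicate number as a block, 7 members were called higher, Bid lost its call (limma, adjusted p = 0.0819), as did Btrc (0.0834), and Bcl2 stood at 3.36 (adjusted p = 7.05e-04). Deviations of same-numbered libraries were not positively correlated (-0.07, -0.06 and -0.09 over genes), so the numbers do not pair the samples. Depth limits low control values, such as those of Pmaip1, Bcl2, Bcl2a1b and Bcl2a1d.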
